A study of Mus musculus with 4 samples.

Results

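Gene deserts, stretches of the genome far from any protein-coding gene, were examined in TrAEL-seq replication profiles of mouse embryonic stem cells. A gene desert window is here a 100 kb window of full length on an autosome that has a value in all 4 libraries and no RefSeq protein-coding gene in it or within 500 kb on either side (GRCm38). Of the 94694 usable windows, which start every 25 kb, 7116 met this definition. Of the 23672 usable windows that do not overlap, 1780 did (7.52%), and these carry the values below unless overlapping windows are named. The remaining 21892 are called other windows. The desert windows form 211 unbroken runs in 209 intergenic gaps, on all 19 autosomes. Runs were between 100 and 3525 kb long, with a median of 600 kb, and 70 of them reached 1000 kb.

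The 4 libraries come from the embryonic stem cell line 129S6/SvEvTac, grown in serum with LIF: 2 from wild-type cells (WT) and 2 from cells without Snf2h (Snf2h KO, labelled SNF2KO), the ATPase that moves nucleosomes in ISWI chromatin remodelling complexes. The design text says that each genotype was cultured in duplicate. How the knockout was made and whether it is a single clone are not given in the sources used here, nor is any replication drug or cell cycle sort. The index sequence in the column name of WT replicate 2 differs from that in its label. The p-values for genotype differences depend on the spread between these duplicates, which may be partly technical. Those that set deserts against other windows, or the sides of a gap, use the 4 library values pooled over genotypes. Library depth is unknown, since the table holds no read counts. Beyond the first 3 Mb of each autosome, desert windows without a value numbered 3 of 1785 in 3 libraries and 5 in KO replicate 2 (0.168% and 0.280%), against 1.17% to 1.61% of other windows.

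TrAEL-seq captures free 3′ ends of DNA with their strand, and at replication forks the strand of these ends follows the direction in which the fork moves. A zone where forks start and move apart appears as a steep change of strand imbalance in one direction along the chromosome, and the ground between such zones, where converging forks meet, as a gentler change in the other direction. The deposited value, called polarity, is the imbalance in percentage points (points), from -50 to 50, and a value near 0 means that both strands contributed about equally. Gene deserts of mammalian genomes are typically AT-rich, poor in active chromatin marks and late to replicate. The table does not say which strand counts as positive, so rising and falling below refer to the deposited sign alone. Replication time was not measured.

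The deserts hold no coding genes but are not empty. RefSeq lists 1157 other genes in the runs, among them 281 lncRNA genes and 538 pseudogenes, and 30 of the 211 runs hold none. Genome sequence was not used here. RefSeq promoters (GRCm38.p6, 300 bases, 250 before to 50 after the start, the first listed for each gene) gave a view of base composition. They matched 187 lncRNA genes in deserts and 9104 elsewhere on the autosomes. Median GC content was 42.0% in deserts (interquartile range 37.8% to 47.0%) and 48.7% elsewhere (43.7% to 54.0%). At least 4 CpG dinucleotides were present in 25.7% of desert promoters and 56.4% of the others. Both lncRNA genes that lie in windows with a genotype difference (described further on) are shown, since no other sequence at those places was at hand, with each CpG in capitals.
Gm38450, chr4:23260534-23260833, plus strand: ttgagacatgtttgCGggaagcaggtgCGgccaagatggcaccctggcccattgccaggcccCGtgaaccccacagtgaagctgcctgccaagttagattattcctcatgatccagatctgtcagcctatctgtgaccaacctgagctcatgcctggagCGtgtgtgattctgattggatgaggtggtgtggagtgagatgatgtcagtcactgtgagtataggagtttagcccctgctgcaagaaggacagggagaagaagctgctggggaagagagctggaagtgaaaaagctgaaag
Gm31145, chr4:23835003-23835302, minus strand: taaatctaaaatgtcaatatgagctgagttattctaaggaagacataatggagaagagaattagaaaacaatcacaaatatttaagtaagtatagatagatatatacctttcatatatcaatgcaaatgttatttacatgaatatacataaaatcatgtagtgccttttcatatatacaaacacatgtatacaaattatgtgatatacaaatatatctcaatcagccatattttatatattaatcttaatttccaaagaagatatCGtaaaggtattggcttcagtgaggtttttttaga
The promoter of Gm38450 has a GC content of 53.0% and 4 CpG dinucleotides. That of Gm31145 has a GC content of 25.0% and 1 CpG. At a window of 100 kb the polarity says nothing of a single promoter.

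Amplitude was lower in deserts than elsewhere in every library. The SD of polarity over desert windows was 10.2 and 8.99 points in WT replicates 1 and 2, and 13.2 and 10.1 points in KO replicates 1 and 2. Over other windows it was 14.9 and 13.1 points in the WT pair and 19.9 and 14.8 points in the KO pair. The ratio of the SD in deserts to that elsewhere was 0.686, 0.686, 0.665 and 0.684 in the same order, a mean of 0.680 ± 0.0103 (SD, n = 4). The mean log2 ratio of -0.56 had an exact two-sided sign-flip permutation p of 0.13, the smallest that 4 libraries allow. The ratio was below 1 on 19 of 19 autosomes in each library. Averaged over libraries it ran from 0.589 on chromosome 8 to 0.879 on chromosome 10.

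Desert windows were nearer to balance and seldom strongly polarised. Polarity within 5 points of 0 was found in 38.3% and 42.2% of desert windows in WT and 30.7% and 39.0% in the KO pair. Among other windows the shares were 23.2% and 26.3% in the WT pair and 17.2% and 23.4% in the KO pair. Values beyond 20 points made up 5.45% and 2.19% of desert windows in WT and 13.7% and 5.06% in the KO pair, against 13.7% to 37.8% of other windows. KO replicate 1 had the most strongly polarised windows of the 4 libraries in deserts and elsewhere.

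**Figure D1:**
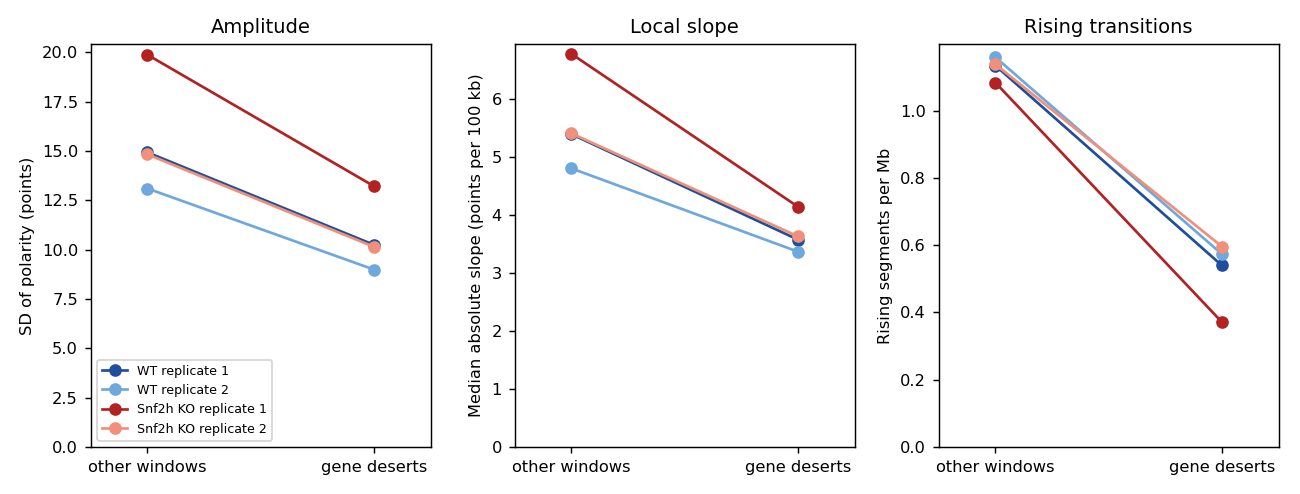
SD of polarity (points), median absolute local slope (points per 100 kb) and rising segments per Mb in gene desert windows and in other autosomal windows; each line joins the values of 1 library. All 3 measures were lower in deserts in all 4 libraries, with KO replicate 1 at 13.2 points against 19.9 for the SD and at 0.371 against 1.08 rising segments per Mb.

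The decline followed distance from coding genes and was not confined to the 500 kb limit. In WT replicate 1 the SD was 14.7 points in the 15355 windows that overlap a coding gene and 16.6 points in the 2927 within 100 kb of one. It was 15.7 points from 100 to 250 kb, 13.2 points from 250 to 500 kb, 10.3 points from 500 kb to 1 Mb (1194 windows) and 10.1 points from 1 Mb on (586 windows). The other libraries had the same order up to 500 kb, with the highest SD within 100 kb of a gene, at 14.5, 21.9 and 16.5 points. From 1 Mb on they had 8.78, 12.2 and 9.67 points. On either side of the limit the values were close. Windows 400 to 500 kb from a coding gene had 12.1, 10.1, 15.3 and 11.8 points, and those 500 to 600 kb away had 11.2, 9.50, 14.9 and 11.2 points, in the order WT replicates 1 and 2, KO replicates 1 and 2. Gap length moved the SD little. Desert windows of WT replicate 1 had 10.2 points in gaps under 2 Mb, 9.98 points in gaps of 2 to 3 Mb and 10.5 points in longer gaps, and those of KO replicate 1 had 13.6, 13.4 and 12.8 points. Desert windows that hold a noncoding gene had SDs of 10.5 and 9.30 points in the WT pair and 13.8 and 10.8 points in the KO pair. Those without any gene had 9.99 and 8.76 points in the WT pair and 12.7 and 9.66 points in the KO pair, lower in 4 of 4 libraries.

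**Figure D2:**
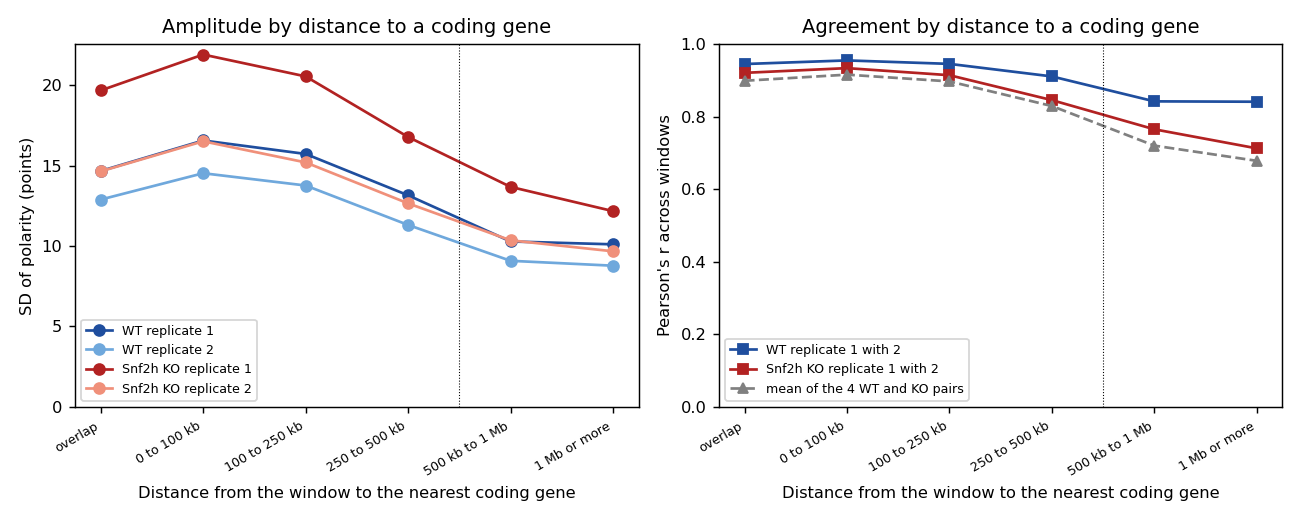
Left, SD of polarity (points) per library by distance of the window from the nearest protein-coding gene. Right, Pearson's r across windows between replicates of a genotype and, as a mean of 4 pairs, between genotypes. The dotted line marks the 500 kb limit of the gene deserts, and both measures are lowest from 1 Mb on in every series of points.

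Polarity varied with the side of the gap and the distance from its edge. Over the gaps that hold deserts, with the sign of the right-hand edge turned so that both edges run into the gap, mean polarity was 11.5, 10.1, 15.7 and 11.1 points in the first 100 kb beyond the flanking coding gene. At 400 to 500 kb it was 6.53, 5.48, 8.52 and 5.96 points. At 500 to 600 kb, where deserts begin, it was 4.84, 3.75, 6.43 and 3.76 points. At 900 to 1000 kb it had fallen to 0.512, 0.455, 2.23 and 1.57 points. All 4 libraries stayed above 0 in each 100 kb bin up to 1400 kb, and farther in the sign varied between bins. On the gene side of the edge it was 0.481, 0.500, 0.884 and 1.31 points at 500 to 600 kb from the gap. The first 200 kb inside the gap thus had the highest mean on this line in every library.

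Within the deserts themselves, windows left of the middle of a gap had a mean polarity of 1.99, 1.40, 2.90 and 1.91 points, and windows right of it -2.14, -1.72, -3.55 and -2.15 points (888 and 892 windows). The difference was 3.62 ± 0.711 points for WT and 5.26 ± 1.70 points for KO (SD, n = 2 each). It was above 0 in 4 of 4 libraries, with a mean of 4.44 points (exact two-sided sign-flip permutation p = 0.13). It was larger in windows less than 750 kb from a coding gene (7.49, 5.78, 10.1 and 6.14 points) than farther inside (1.56, 1.09, 3.71 and 2.48 points). With 250 kb kept free of coding genes in place of 500 kb the mean was 7.60 points, and with 1 Mb it was 1.40 points. KO exceeded WT by 1.64 points, more than the replicate SD pooled over genotypes (1.30 points), yet KO replicate 2 at 4.06 lay between the WT libraries at 4.13 and 3.12 (exact two-sided permutation p = 0.667). Without KO replicate 1 the genotype difference was 0.437 points and without KO replicate 2 it was 2.84 points. Both KO libraries lay above WT with overlapping windows (1.66 points) and with 1 Mb kept free of coding genes (1.13 points; exact permutation p = 0.33 each).

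**Figure D3:**
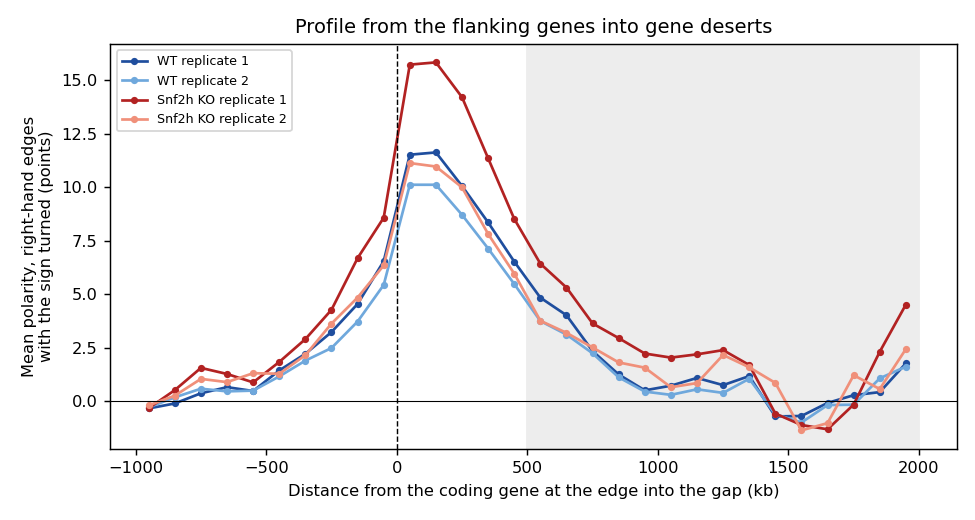
Mean polarity (points) per library against distance from the coding gene at the edge of a gap (kb; dashed line at 0, shaded from 500 kb where deserts begin), with right-hand edges mirrored and sign-turned and each window assigned to its nearer edge. All 4 libraries peak just inside the gap, at 10.1 to 15.8 points, and come down to between 0.455 and 2.23 points at 900 to 1000 kb.

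Local slope, the change of polarity per 100 kb taken from the windows 100 kb before and after, was also smaller in deserts. The median absolute slope over 1777 desert windows was 3.58 and 3.37 points per 100 kb in the WT pair and 4.15 and 3.63 points per 100 kb in the KO pair. Over other windows it was 5.40 and 4.81 in the WT pair and 6.78 and 5.41 in the KO pair. In other windows that hold no coding gene it was 4.67, 4.17, 5.77 and 4.69. The ratio of deserts to other windows was 0.663, 0.701, 0.611 and 0.671, below 1 in 4 of 4 libraries (mean log2 ratio -0.60; exact two-sided sign-flip permutation p = 0.13). Against all other windows, most of which overlap a coding gene, the flattening was stronger on the rising side. The ratio of the median rising slope was 0.539, 0.594, 0.450 and 0.564, while that of the median falling slope was 0.736, 0.767, 0.699 and 0.773. In each library the ratio for rises was the lower. Flat rises were not particular to deserts: the median rising slope was 3.27, 3.15, 3.53 and 3.26 points per 100 kb in deserts and 3.25, 2.58, 3.76 and 2.90 in windows 100 to 250 kb from a coding gene.

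Falling ground took up more of the deserts than of all other windows, but not more than of other windows without a coding gene. The slope was negative in 66.8%, 63.1%, 67.4% and 59.5% of desert windows, against 54.8%, 54.2%, 56.0% and 53.9% of all other windows. In the 6537 other windows that hold no coding gene it was negative in 67.6%, 66.9%, 69.3% and 65.4%, and at 100 to 250 kb from a coding gene in 77.0%, 75.5%, 78.6% and 73.2%. Over all other windows the median rise was steeper than the median fall (6.07 against -5.04 points per 100 kb in WT replicate 1). In deserts the fall was the steeper, with 3.27 against -3.71 in WT replicate 1, 3.15 against -3.48 in WT replicate 2, 3.53 against -4.35 in KO replicate 1 and 3.26 against -3.99 in KO replicate 2. Other windows without a coding gene had the same order, with 4.10 against -4.84 in WT replicate 1, and from 1 Mb on it was lost in 3 of 4 libraries (3.45 against -3.34 in WT replicate 1). The steepest rises came nearer to those elsewhere in 3 of 4 libraries. The 95th percentile of rising slopes was 16.6, 12.9, 19.2 and 12.9 points per 100 kb, and that of falls 9.24, 8.83, 11.2 and 10.5. As a ratio to other windows this was 0.870, 0.761, 0.739 and 0.674 for rises and 0.630, 0.678, 0.599 and 0.713 for falls. A straight line through each of the 70 runs of at least 1000 kb fell in all 4 libraries in 45 runs, rose in all 4 in 10 and differed in sign between libraries in 15. Its median was -4.93 and -4.02 points per Mb in WT and -8.38 and -5.49 points per Mb in the KO pair.

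Rising transitions were sparse in deserts. A rising segment was a stretch from a local minimum to the next maximum of the smoothed profile with a rise of at least 1 SD of that library. Deserts held 96 and 102 such segments in WT and 66 and 106 in the KO pair with their midpoint in a desert window. This was 0.539, 0.573, 0.371 and 0.596 per Mb, against 1.13, 1.16, 1.08 and 1.14 per Mb elsewhere. The ratio was 0.476, 0.495, 0.342 and 0.524 (mean log2 ratio -1.14; exact two-sided sign-flip permutation p = 0.13). The limit of 1 SD is set on the whole library and is harder to reach where amplitude is low. With a limit of 0.5 SD the mean log2 ratio was -0.66. With 250 kb kept free of coding genes in place of 500 kb it was -1.46, and with 1 Mb -0.67. The depletion was thus not confined to windows beyond 500 kb. Other windows that hold no coding gene were not counted separately for segments. Falling segments were less depleted, at ratios of 0.705, 0.779, 0.609 and 0.733. Where a desert did hold a rise, its median height was 24.2, 20.6, 32.6 and 19.5 points, against 28.5, 24.6, 37.8 and 27.2 points elsewhere. Its median steepness was 11.8, 9.89, 15.5 and 11.3 points per 100 kb, against 12.2, 10.8, 16.2 and 12.4 elsewhere.

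The mean profile of all libraries had 72 rising segments in deserts among 2455. The largest was on chromosome 1 at 101575000 to 101950000, between Cntnap5b, a contactin-associated cell adhesion gene, and the cadherin gene Cdh20, and holds only the pseudogene Gm18969. Polarity there rose by 45.4 and 34.2 points in the WT pair and by 64.5 and 52.8 points in the KO pair (39.8 ± 7.91 and 58.6 ± 8.32, SD, n = 2 each). The KO values did not overlap with those of WT (exact two-sided permutation p = 0.33, which 2 libraries against 2 cannot go below). Among single windows the polarity was separated in this way in 44.7% of all, and the share among rises was not counted. The next largest rise lay on chromosome 10 at 46600000 to 46975000, between the ubiquitin ligase gene Hace1 and the kainate receptor gene Grik2. It rose by 52.0 and 43.7 points in the WT pair and by 63.3 and 34.5 points in the KO pair, where the genotypes overlapped. The third, on chromosome 5 at 59775000 to 60050000 in the desert after the protocadherin gene Pcdh7, holds the lncRNA gene 4933402J10Rik. It rose by 46.7 and 44.5 points in the WT pair and by 55.4 and 43.3 points in the KO pair, again with overlap.

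Replicates agreed less well in deserts. Pearson's r across desert windows, a description since windows of a library share its depth and neighbours are related, was 0.842 for the pair of WT libraries and 0.750 for the KO pair (n = 1780 windows). Across other windows it was 0.945 and 0.918. The sign of polarity was the same in 79.6% of desert windows for WT and 72.5% for KO, against 89.6% and 86.8% elsewhere. The signal shared by replicates, taken as the square root of their covariance, was 8.80 points in the WT pair and 10.0 points in the KO pair, against 13.6 and 16.4 points elsewhere. Differences between replicates had an SD of 5.54 points for WT and 8.75 for KO, close to the 5.00 and 8.59 points of other windows. As a ratio of deserts to other windows, the shared signal was thus 0.648 for WT and 0.609 for KO, and the replicate difference 1.11 and 1.02. Slopes agreed less than levels, with r of 0.749 in the WT pair and 0.565 in the KO pair, against 0.915 and 0.874 elsewhere. Of the desert rising segments of WT replicate 1, 81.2% had a counterpart within 100 kb in WT replicate 2, and 77.5% in the reverse direction, against 89.4% and 87.6% elsewhere. Of those of KO replicate 1, 83.3% had a counterpart in KO replicate 2, and 51.9% in reverse, against 86.5% and 82.4% elsewhere.

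Between genotypes, r over desert windows was 0.771 and 0.735 where KO replicate 1 was set against WT replicates 1 and 2. With KO replicate 2 it was 0.672 and 0.651. KO replicate 1 was thus closer to WT replicate 1 than to KO replicate 2, at 0.750. Pairs of the same genotype had a mean r of 0.796 and mixed pairs 0.707. This difference, 0.0885, was larger than that of the other splits among the 3 ways to split the libraries into pairs (exact permutation p = 0.33, the smallest they allow), beside 0.0339 in other windows. Without KO replicate 1 it was 0.180, without WT replicate 1 it was 0.0568 and without WT replicate 2 it was 0.0282.

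The contrast between deserts and other windows was present in both genotypes, and its size was compared between them. The SD over desert windows was 9.61 ± 0.886 points for WT and 11.7 ± 2.17 points for KO (SD, n = 2 each). KO exceeded WT by 2.06 points, more than the replicate SD pooled over genotypes (1.66 points), yet KO replicate 2 at 10.1 lay between the WT libraries (exact two-sided permutation p = 0.667). Without KO replicate 1 the excess was 0.527 points and without KO replicate 2 it was 3.60 points. By median absolute polarity both KO libraries lay above WT, at 8.62 and 6.76 against 6.74 and 6.17 points (exact permutation p = 0.33). With each library standardised to its own SD the sign turned, to -0.0115 SD. Relative to other windows of the same library, the SD ratio was 0.686 ± 0.000254 in WT and 0.674 ± 0.0135 in KO, and KO minus WT was -0.0117, against a pooled replicate SD of 0.00957 (exact two-sided permutation p = 0.33). The KO libraries, at 0.665 and 0.684, were below the WT libraries, both at 0.686. Without KO replicate 1 the difference was -0.00214, and the genotypes overlapped with overlapping windows, with median absolute polarity and with the outer 0.5% of windows at either end removed (exact two-sided permutation p = 0.667, 0.667 and 1). The slope ratio differed by -0.0405, against a pooled replicate SD of 0.0357, with KO replicate 2 between the WT libraries (exact two-sided permutation p = 0.667). With the slope taken over 50 kb on either side its sign turned, to 0.0382. Over 200 kb on either side it was -0.0562 and with 250 kb kept free of coding genes -0.0421, both with the KO libraries below those of WT (exact permutation p = 0.33 each). The median falling slope in deserts was -3.59 ± 0.162 points per 100 kb for WT and -4.17 ± 0.252 for KO (SD, n = 2 each). It was steeper in both KO libraries by more than the pooled replicate SD of 0.212 (exact two-sided permutation p = 0.33). Other windows had the same order, at -4.79 ± 0.357 for WT and -5.70 ± 0.746 for KO. As a ratio to other windows, KO minus WT was -0.0155, against a pooled replicate SD of 0.0401, and the genotypes overlapped.

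Single windows were tested with limma over all 23672 windows, of which 13 had an adjusted p-value under 0.05 (0.0549%). Desert windows made up 4 of the 13 (0.225% of 1780), 1 higher in KO (background 0.0338%) and 3 lower (background 0.0211%). Of the 4, a pair shares a desert, and the share was not tested. Both KO values lay above both WT values in 366 desert windows (20.6%, against 22.2% of all windows) and below them in 379 (21.3%, against 22.5%). Together this was 41.9% of desert windows and 44.7% of all. Unadjusted p-values under 0.05 were found in 219 (12.3%, against 12.2% of all). For local slope, limma called no desert window (count 0 of 1777) and 2 of 23477 windows in all (0.00852%). At an unadjusted p-value under 0.05 there were 173 desert slopes (9.74%, against 11.0%). With each library standardised 10 desert slopes passed (0.563%, against 0.324% of all) and with limma's trend and robust options 6 (0.338% against 0.179%). Without KO replicate 1 the count was 151 (8.5% against 5.59%) and without KO replicate 2 it was 136 (7.65% against 11.0%).

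The largest differences among these windows lay in a desert of 975 kb on chromosome 4, from 23000001 to 23975000. It lies between Pou3f2, a neural POU-domain transcription factor gene, and Mms22l, a gene for a factor in the repair of stalled forks. In its left part, at 23200001 to 23300000, polarity was 1.98 and 5.48 points in the WT pair and -28.2 and -26.9 points in the KO pair. The difference was -31.3 points (limma adjusted p = 0.00557, SE 4.52). In its right part, at 23800001 to 23900000, polarity was -0.228 and -3.29 points in the WT pair and 34.0 and 26.1 points in the KO pair, a difference of 31.8 points (limma adjusted p = 0.00569, SE 4.68). WT values thus stayed near 0 at both places, whereas KO values were far below 0 at the first and far above 0 at the second. The windows overlap the lncRNA genes Gm38450 and Gm31145, whose promoters are printed above. Between them all libraries rose: by 20.3 and 21.8 points in WT over segments that start at 23525000, and by 64.7 and 45.5 points in the KO pair, over segments that start at 23425000 and 23525000. Both KO rises were higher than both WT rises, and the 4 segments overlap. The SD of polarity over the desert was 6.63 and 7.22 points in the WT pair and 26.7 and 19.4 points in the KO pair.

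In a desert of 2000 kb on chromosome 3, from 10950001 to 12950000, a rising segment was called in both KO libraries where WT had none. It lies between the sorting nexin gene Snx16 and the RNA-binding protein gene Ralyl. At 11400001 to 11500000, where RefSeq lists no gene, polarity was 15.7 and 19.4 points in the WT pair and -11.5 and -11.1 points in the KO pair, a difference of -28.8 points (limma adjusted p = 0.0101, SE 4.52). Each WT library had 2 rising segments in the desert, at 11125000 to 11325000 and from 12175000. Both KO libraries also had a rise near each of these places, and 1 more between them, of 40.8 points at 11475000 to 11700000 in KO replicate 1 and 28.2 points at 11450000 to 11650000 in KO replicate 2. The slope at 11500001 was -0.444 and -4.71 points per 100 kb in the WT pair and 22.3 and 16.0 in the KO pair, and this difference of 21.7 did not pass the threshold (limma adjusted p = 0.0735, SE 3.11).

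In a desert of 1850 kb on chromosome 3, from 110775001 to 112625000, between the arginine methyltransferase gene Prmt6 and the amylase gene Amy2b, the ground between a pair of rises differed. At 111700001 to 111800000, which holds no listed gene, polarity was 10.9 and 8.71 points in the WT pair and -23.3 and -10.3 points in the KO pair. The difference was -26.6 points (limma adjusted p = 0.0499, SE 4.94). The second rise was 30.8 and 24.3 points high in WT and 54.8 and 41.0 points in the KO pair. The first was 45.4 and 33.6 points in the WT pair and 40.3 points in KO replicate 1, while KO replicate 2 had 20.1 points after a smaller rise of 17.2 points.

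For each of the 4 windows, 6 of 6 overlapping neighbours had the KO values beyond those of WT in the same direction. These neighbours share part of their sequence with the called window and are no independent support. Leaving out a library leaves an arm of 1, which is assumed to vary like the pair of the other genotype. Without WT replicate 2 none of the 4 passed, with limma adjusted p-values of 0.157 and 0.113 on chromosome 4, and 0.302 and 0.267 on chromosome 3. The differences were then -29.6, 30.3, -27.0 and -27.7 points, close in size to those with all libraries. Without WT replicate 1 the pair on chromosome 4 passed (0.0310 and 0.0297) and those on chromosome 3 did not (0.0910 and 0.702), with differences of -33.1, 33.4, -30.7 and -25.5 points. With limma's trend and robust options 41 desert windows passed (2.30%, against 1.28% of all windows), and with each library standardised 13 (0.730% against 0.372%). Without KO replicate 1 the count was 168 (9.44% against 5.79%), and without KO replicate 2 it was 290 (16.3% against 20.2%), with the spread taken from the WT pair alone in both.

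**Figure D4:**
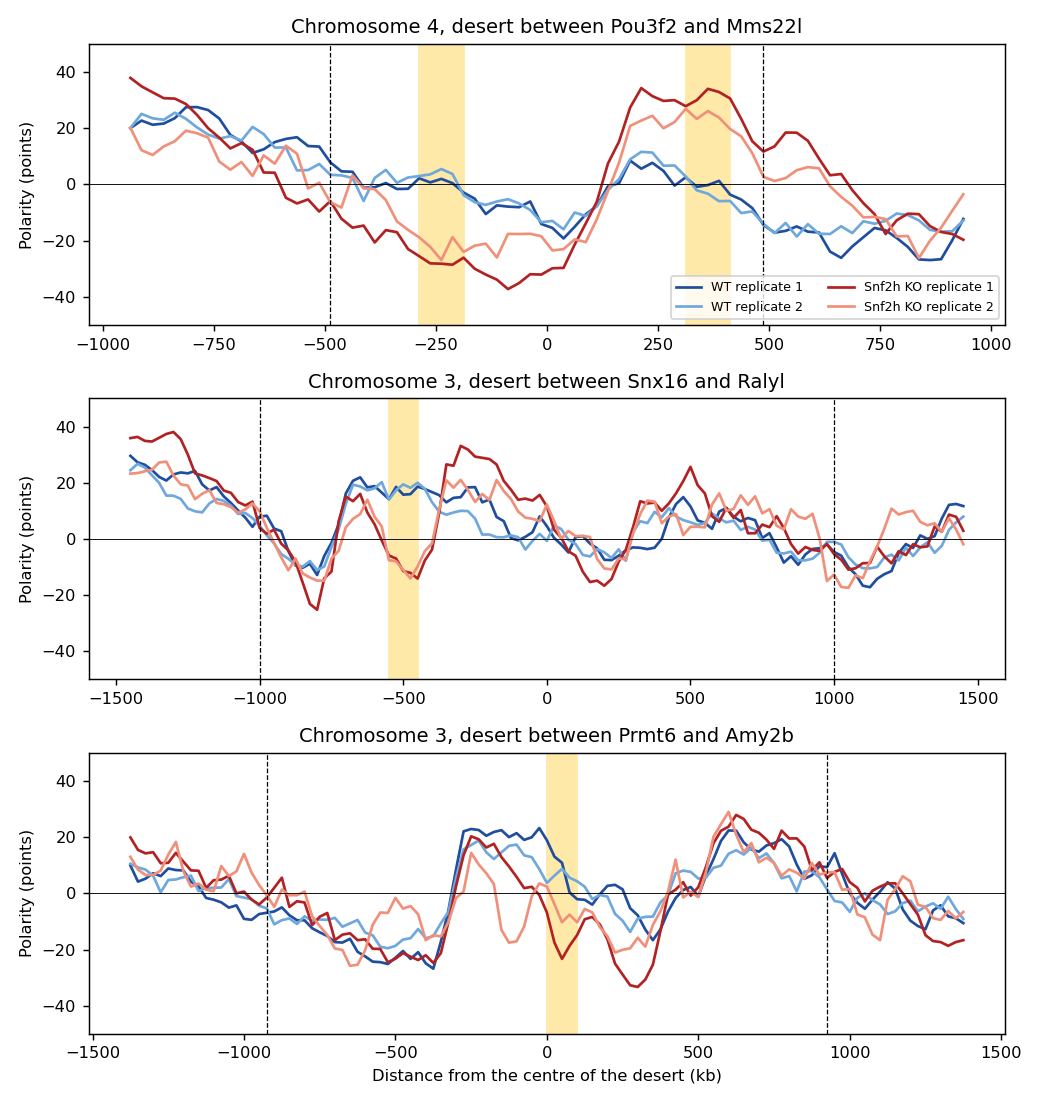
Polarity (points) of the 4 libraries over the 3 deserts that hold a window past the threshold, against distance from the centre of the desert (kb); dashed lines mark the ends of the desert and shading the called windows. On chromosome 4 the KO means of the called windows are -27.6 and 30.1 points, against 3.73 and -1.76 points in WT, and in the desert after Snx16 the KO lines have 3 rises where the WT lines have 2.

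The 3 longest deserts were more variable than most. The SDs of their mean profiles were 10.7, 9.67 and 8.08 points, above the median of 7.36 points over the 117 runs of at least 500 kb. The run of 3525 kb on chromosome 14, from 88975001 to 92500000, lies between the protocadherin genes Pcdh20 and Pcdh9. It held 3 and 2 rising segments in WT and 2 and 2 in the KO pair. The largest rose by 31.2, 20.8, 37.6 and 28.9 points and started between 91575000 and 91625000 in all 4 libraries. The run of 3475 kb on chromosome 18, from 26275001 to 29750000, lies between Celf4 and Pik3c3, a neuronal RNA-binding protein gene and the gene of the class III phosphoinositide kinase. It held 2 and 3 rising segments in WT and 3 and 4 in the KO pair. The largest was at 27625000 to 27875000 in both WT libraries and started at 26450000 in both KO libraries, with heights of 33.2 and 28.9 points in the former and 38.1 and 23.2 points in the latter. The run of 3400 kb on chromosome 14, from 80525001 to 83925000, lies between Olfm4, an olfactomedin gene, and the protocadherin gene Pcdh17, and held 2 rising segments in each library. The largest started between 82800000 and 82875000 in 3 libraries and at 81425000 in KO replicate 1. SDs of polarity were 11.6, 8.20, 14.4 and 10.8 points in the first, 9.50, 8.93, 14.0 and 10.3 points in the second and 9.63, 7.20, 11.3 and 8.55 points in the third.

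**Figure D5:**
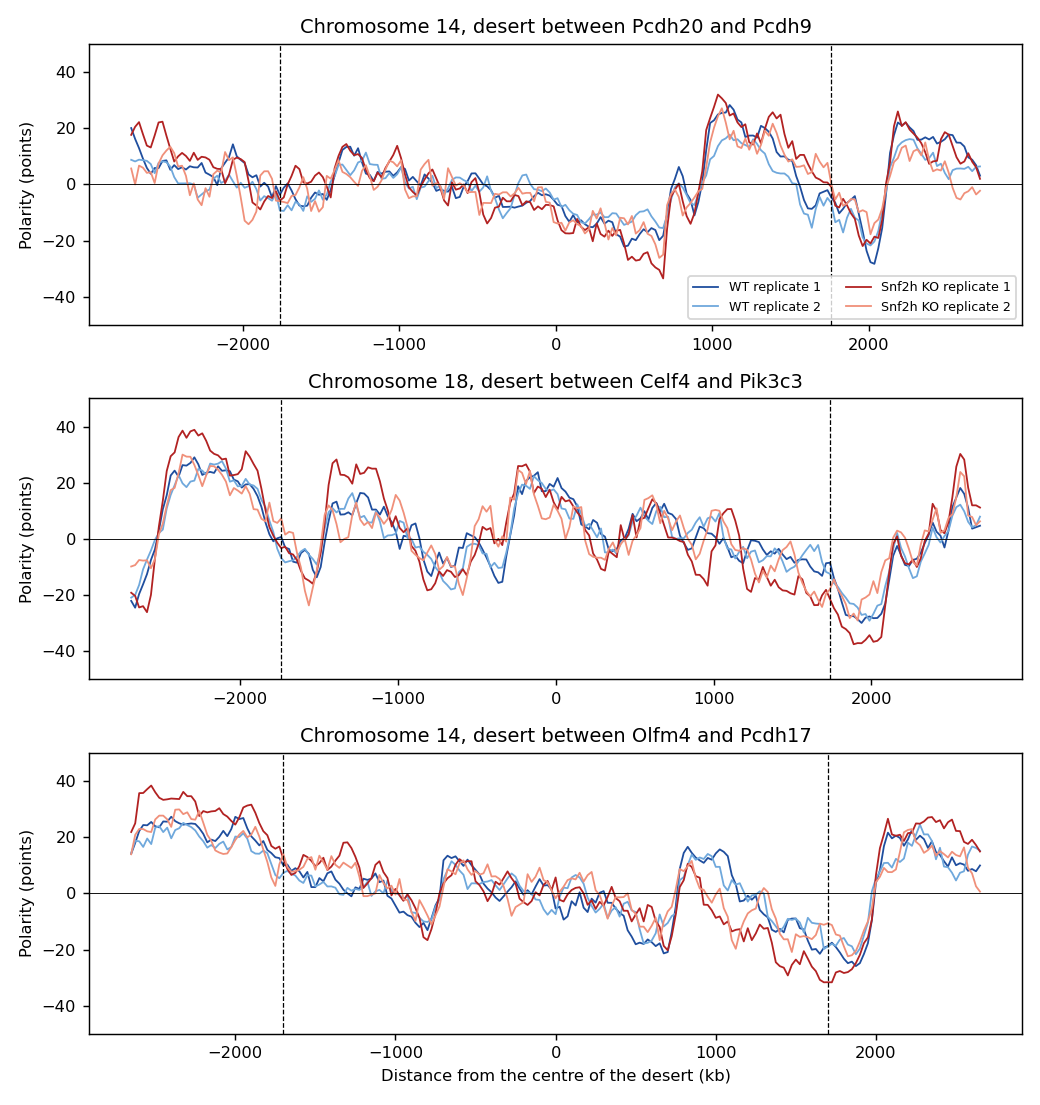
Polarity (points) of the 4 libraries over the 3 longest deserts and 1000 kb on either side, against distance from the centre of the desert (kb); dashed lines mark the ends of the desert. In the desert between Pcdh20 and Pcdh9 the largest rise, of 20.8 to 37.6 points, lies between a stretch of negative and a stretch of positive polarity in all 4 libraries.

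Deserts varied widely among themselves. Over the 117 runs of at least 500 kb the SD of the mean profile ran from 1.83 to 14.4 points. The highest were the run on chromosome 5 from 58650001 to 61300000 between Pcdh7 and G6pd2 (15.8 and 14.1 points in WT, 17.6 and 12.8 in the KO pair), that on chromosome 10 from 46225001 to 48575000 between Hace1 and Grik2 (15.6 and 12.8 in WT, 17.4 and 11.0 in the KO pair) and the desert on chromosome 4 described above. The first pair also hold 2 of the 3 largest rises, and their KO and WT values overlap. The lowest were on chromosome 1 from 27200001 to 28275000 between 4931408C20Rik and Gm597, on chromosome 1 from 122075001 to 122825000 between Ddx18 and Dpp10, and on chromosome 8 from 99925001 to 102125000 between the cadherin genes Cdh8 and Cdh11. In the desert between Ddx18 and Dpp10 the low SD is that of the mean over libraries, in which opposite slopes cancel. Its SDs were 6.80 and 4.60 points in the WT pair and 4.84 and 4.80 points in the KO pair, and a straight line through it had slopes of 19.04 and 12.09 points per Mb for WT against -18.96 and -4.21 for KO. The desert between Cdh8 and Cdh11, 2200 kb long, had SDs of 3.83 and 2.77 points in the WT pair and 5.39 and 4.54 points in the KO pair, and its values never left -16.1 to 15.7 points in any library.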

How the data were processed

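Deposited values give, for each 100 kb window, a signed imbalance of the strands in percentage points. Alignment by the authors used bowtie2 and GRCm38 with an rRNA sequence, followed by deduplication by library, per the file headers; the submitters' processing notes name Trim Galore 0.6.5 and Bowtie2 2.4.1. How the imbalance was computed, its positive strand and any minimum of reads are not given in the sources used here. Depth is unknown, so no counting interval was computed.

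Gene intervals are those of a RefSeq table of GRCm38.p6. Windows spaced 100 kb were used for summaries. Local slope is the difference between the windows 100 kb after and before, divided by 2. Segments used a running mean of 5 windows, and their positions are window midpoints. limma 3.58.1 (R 4.3.3; lmFit and eBayes, Benjamini-Hochberg, threshold 0.05) was fitted over all windows, and checked on simulated data. Library values were compared by exact two-sided permutation, over the 6 label orders or over signs. Correlation within minus between genotypes was instead compared over the 3 splits into pairs, by the share with a value at least as large. The 9 exact tests had adjusted p-values of 0.281 or more (Benjamini-Hochberg). Named windows were those past the threshold; named deserts were the 3 longest, the 3 of at least 500 kb with the highest and the lowest SD of the mean profile, and the 3 largest rises. Membership and lists were chosen with earlier results of these data known. Python 3.11.15, numpy 2.4.6 and pandas 2.3.3 were used.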

Additional observations from a re-analysis of the deposited data

Results flagged for a closer look

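The X chromosome was outside the comparisons above, and there the amplitude of gene deserts relative to the rest of X exceeded the level of the WT controls in both KO libraries. Over 97 desert windows and 1365 other windows of X, the ratio of the SD of polarity was 0.716 and 0.711 in WT replicates 1 and 2, and 0.762 and 0.777 in KO replicates 1 and 2. The KO mean was 0.769 and the WT mean 0.714. The difference was 0.0558, against a pooled replicate SD of 0.00806. The ratio is given here because both KO values lay above both WT values. That choice fixes the exact two-sided permutation p at 0.33, the smallest that 2 against 2 libraries allow, so it tests nothing. On the autosomes KO minus WT was -0.0117 for the same ratio; the difference between X and autosomes was not tested.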

How the results depend on the processing

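No exact test of this design could pass 0.05, so these tests show nothing on the stability of significance. For the 9 values compared by library, 46 of 48 alternatives other than omission of a library kept the direction. The exceptions were the SD in deserts, KO minus WT, which was -0.0115 with each library standardised, and the slope ratio, KO minus WT, which was 0.0382 with the slope taken over 50 kb on either side. The cause was not tested for the latter. Standardising divides out the overall amplitude of a library, so ratios to other windows, correlations and segment counts cannot change under it. Their agreement in that setting was fixed in advance. For the log2 ratios of deserts to the rest, and for left against right of the gap, all 4 libraries share a sign. There no omission could turn the direction. All 36 omissions of a library kept the direction. Their ranges were -0.56 to -0.54 for the log2 SD ratio of deserts to the rest, -0.63 to -0.56 for the log2 slope ratio, -1.21 to -1.01 for the log2 ratio of rising segments, 3.77 to 4.88 points for the difference between left and right of the gap and 0.437 to 2.84 points for its genotype difference. They were 0.527 to 3.60 points for the SD, KO minus WT, -0.0213 to -0.00214 for the SD ratio, -0.0707 to -0.0104 for the slope ratio and 0.0282 to 0.180 for correlation within minus between genotypes. The difference between left and right of the gap was 7.60 points with 250 kb kept free of coding genes and 1.40 points with 1 Mb.

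The number of desert windows past limma's threshold moved with the processing. Against 4, it was 13 with each library standardised, 41 with limma's trend and robust options and 1 with 1 Mb kept free of genes, where 586 windows qualify (0.171%, against 0.0549% of all windows). With the replicate number as a block it was 68 (3.82% of desert windows, against 2.66% of all windows), and 110 with the block and standardising (6.18% against 3.62%). All 4 windows were called again under each of these except the 1 Mb limit. Omission of a library gave 0 to 290. For slopes, against 0, the count was 37 with the block (2.08%, against 2.15% of all slopes), 10 with standardising (0.563% against 0.324%), 13 with the block and standardising (0.732% against 0.426%), 6 with trend and robust options (0.338% against 0.179%), 1 at an adjusted p-value under 0.1 (0.0563% against 0.0426%), and 0 to 151 with a library omitted (151 without KO replicate 1, 8.5% against 5.59%; 136 without KO replicate 2, 7.65% against 11.0%). The cause was not tested. The labels do not say that a replicate number marks a shared batch, and 2 numbers are too few to tell: deviations of same-numbered libraries correlated at 0.241 over all windows and 0.139 over desert windows, and at 0.0158 and 0.0389 after standardising. Of 32 alternatives for the 4 named windows 26 kept the call and 6 lost it, all by omission of a WT library.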
